A study of Mus musculus with 59 samples.

Results

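ASP at 1 d was measured on 6 of the 59 two-colour arrays, chosen by their labels alone. Melan-a, an established line of pigmented melanocytes, strain C57BL6 per the labels, received 10 nM recombinant murine agouti signaling protein (ASP) for 1 d. Each array compared this RNA with RNA from untreated melan-a cells. Treated RNA carried Cy5 in repeats 1 to 3 and Cy3 in repeats 4 to 6. The other groups described here are ASP at 10 nM for 3 h and for 2, 3 and 4 d, and α-melanocyte-stimulating hormone (α-MSH) at 100 nM for 1 d, each against untreated cells. α-MSH at 100 nM for 3 h and for 2, 3 and 4 d entered the same model, which shares its spread over groups. All groups are 1 cell line in culture. The design text calls the replicates biological, without saying what was cultured separately, and nothing used here gives the age or medium of the untreated cultures.

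α-MSH activates the melanocortin 1 receptor (MC1R) of melanocytes, which raises cyclic AMP and favours dark eumelanin. ASP, the product of the agouti gene, binds the same receptor as an antagonist and inverse agonist and shifts pigment production towards yellow pheomelanin. The comparison asks which transcripts differed from untreated cells after 1 d of this signal.

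Values are log2 ratios, likely treated over untreated, minus the median of the array; neither the log base nor the direction is stated with the values. Direct and reverse arrays were averaged into 3 replicates (repeats 1 and 4, 2 and 5, 3 and 6), a pairing that was assumed from the repeat numbers. The limma estimate of the correlation between the 2 arrays of a pair, beyond group and dye, was -0.12 over all groups. The values thus gave no backing to the pairing, on which all replicate values and SDs rest. The table lists probe numbers that the files do not pair with genes, so probes are described by number and melanocyte markers could not be looked up. Ratios also carry no levels. RNA came from whole cultures, in which fewer cells of a type and less RNA per cell cannot be told apart.

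The Cy5 array of repeat 1 stood apart before any test. Each array gave between 34008 and 38339 values. The middle 50% of values on the repeat 1 array spanned 3.45 log2 units, against 0.648 to 0.92 on the other 5 arrays. Its quartiles lay at -2.19 and 1.26 and only 10.9% of its values lay within 0.5 of its median. Its deposited median was -1.44, while those of repeats 2 and 3 were -0.06 and -0.219 and those of the Cy3 arrays lay between 0.19 and 0.371. Arrays of one dye orientation correlated at a median of 0.39 over probes and arrays of opposite orientation at -0.31. Over 31472 probes with 6 values, the deviation of either orientation from the mean of both had an SD of 0.589, and that mean had an SD of 0.314. With ratios of treated over untreated, the first holds the dye part and the second the treatment part; with ratios of Cy5 over Cy3 these would be exchanged. Both SDs include the repeat 1 array. Replicates 2 and 3 correlated at 0.19, while replicate 1 correlated with them at -0.10 and -0.11. These correlations are across probes, which are not independent replicates.

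**Figure D1:**
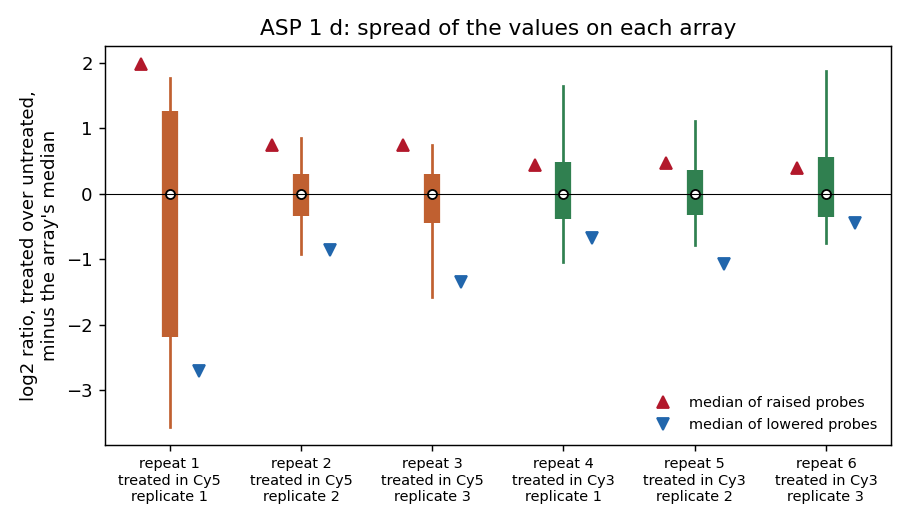
Centred log2 ratios on each of the 6 arrays: the circle marks the median, the box the quartiles and the line the 5th to 95th percentile, in orange with treated RNA in Cy5 and green with it in Cy3; triangles give the medians of the raised and lowered probes. The box of the repeat 1 array spans 3.45 log2 units, and the raised probes have a median of 1.98 there against 0.393 to 0.752 on the other arrays. The lowered probes have a median of -2.705 there (81 values) against -1.348 to -0.44 on the other arrays (46 to 69 values).

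ASP changed 348 of 36457 probes tested at 1 d (0.955%, limma, Benjamini-Hochberg adjusted p under 0.05). Of these, 267 rose (0.732% of probes tested) and 81 fell (0.222%). The raised probes had a median of 0.78, or 1.72-fold, and ranged from 0.45 to 2.37. The lowered probes had a median of -1.36, or 2.57-fold, and ranged from -2.54 to -0.59. Changes of 2-fold or more were found at 63 raised and 57 lowered probes. Over all tested probes the median was 0.01, the median standard error was 0.215, and 5093 probes (14.0%) had an unadjusted p under 0.05. These p-values use a spread shared with the α-MSH groups. With the spread of ASP replicates alone 73 probes passed, and with that of the 1 d replicates alone 0 (limma, 1418 at an unadjusted p under 0.05). Scaling the 1 d arrays to one median absolute deviation gave 60.

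Much of the count of 348 also depended on replicate 1. The raised probes had medians of 1.20, 0.62 and 0.55 in replicates 1, 2 and 3, and 243 of the 267 were largest in replicate 1. The lowered probes had medians of -1.48, -1.19 and -1.06, and 38 of the 81 were largest in replicate 1. Over all tested probes, replicate 1 was also the largest in size for 26052 of 36457. Without replicate 1, 44 probes passed (0.124%), 25 raised and 19 lowered, of which 26 were among the 348. Without only the Cy5 array of repeat 1, 122 of the 348 were kept, 93 of the 267 raised and 29 of the 81 lowered. In total 264 passed there (0.732%), 135 raised and 129 lowered. The split between directions thus moved from 76.7% raised to 51.1%. Without centring 127 probes rose and 198 fell, 39.1% raised, so the predominance of raised probes does not hold under that scaling. With the 1 d Cy3 arrays alone 240 rose and 248 fell, 49.2% raised. Their dye correction still came from all ASP arrays, the repeat 1 array included. Pairing repeats 1 and 5, 2 and 6, 3 and 4 instead raised the count to 1062, with 45.6% raised. Pairing repeats 1 and 6, 2 and 4, 3 and 5 raised it to 1283, with 49.6% raised. The remaining possible pairings of direct and reverse arrays were not run. A loess correction for dye gave 249 probes (0.684%), 162 raised and 87 lowered, with 194 of the 348 kept.

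**Figure D2:**
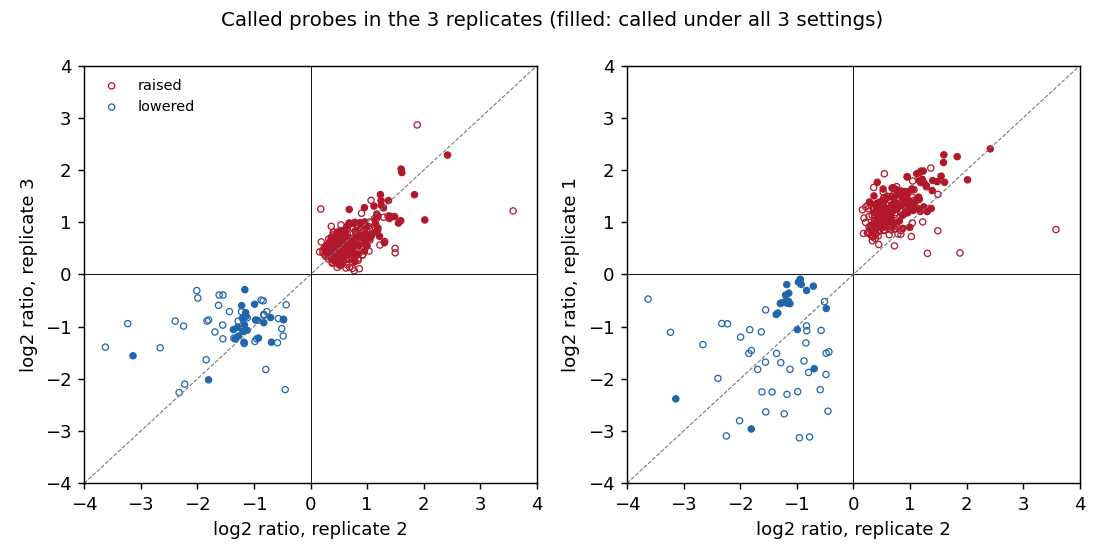
Log2 ratio of each called probe with 3 replicate values (265 raised, 62 lowered) in replicate 3 against replicate 2 (left) and replicate 1 against replicate 2 (right); the dashed line marks equal values. Most raised probes lie above the dashed line at the right, with medians of 1.20 in replicate 1 and 0.62 in replicate 2, and filled points mark the probes called under all 3 settings.

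A smaller set passed with all arrays, without the Cy5 array of repeat 1 and with the loess correction. It held 107 probes (0.293% of 36457), 83 raised with a median of 1.02 and 24 lowered with a median of -0.88. All 83 raised probes were above 0 in each of the 3 replicates, with medians of 1.44, 0.88 and 0.75. Of the 82 raised probes with 6 values, 76 were above 0 on all 6 arrays. Among the 24 lowered probes the replicate medians were -0.54, -1.16 and -0.99. Only 8 of the 21 lowered probes with 6 values were below 0 on all 6 arrays. Of these sets, 75 of the 83 raised and 3 of the 24 lowered probes were largest in replicate 1, against 38 of all 81 lowered probes. The set was chosen from the 1 d values, and by passing without the repeat 1 array, so these figures are a description.

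The raised and lowered probes differed in how completely they were measured. Values on all 6 arrays were present for 256 of 267 raised probes and for 30 of 81 lowered probes. Probes with a value on 2 arrays were called most often, 13 of 269 (4.83%), all lowered. Probes with all 6 values were called at 0.909%, as 256 raised and 30 lowered. A test restricted to probes with 6 values found 283 raised and 32 lowered. Of the 31472 probes with 6 values, 784 were above 0 on every array and 216 below, 3.18% together; 191 and 11 of these were among the called probes.

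Probe 1763317_1 had the largest rise among called probes with 1 sign on all 6 arrays. The Cy5 arrays of repeats 1 to 3 read 3.14, 2.13 and 2.32 on the log2 scale, and the Cy3 arrays of repeats 4 to 6 read 1.67, 2.71 and 2.26. All 6 arrays were thus above 0, and the repeat 1 array was the highest. The mean was 2.37 ± 0.07 (SD, n = 3 replicates), 5.17-fold, with a limma adjusted p of 0.000348. That SD rests on the assumed pairing, while the single arrays ran from 1.67 to 3.14. Without the repeat 1 array the mean was 2.18 with an adjusted p of 0.000996, within a range over 26 alternatives of 3.58e-10 to 0.546. The highest of these came from the 1 d replicates alone, and the others stayed at or below 0.0147.

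Probe 1770597_1 gave log2 ratios of 2.86, 1.79 and 1.72 on the Cy5 arrays and of 1.72, 1.41 and 2.32 on the Cy3 arrays. Its mean was 1.97 ± 0.35 (SD, n = 3), 3.92-fold (limma adjusted p = 0.000506). Again every array was above 0 and repeat 1 was highest. The 12 raised probes chosen by this rule had means from 1.44 to 2.37, and all 12 were largest on the repeat 1 array. Of the 12, 11 passed without that array and 12 passed with loess.

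Probe 1792966_1 had the largest fall under the same rule. The Cy5 arrays gave log2 ratios of -2.29, -2.99 and -0.66, and the Cy3 arrays -2.47, -3.29 and -2.46. The array of repeat 3 lay nearest to 0, and the repeat 1 array lay inside the range of the others. The mean was -2.36 ± 0.79 (SD, n = 3), 5.13-fold lower (limma adjusted p = 0.00399).

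The next lowered probe, 1764596_1, rested mostly on replicate 1. Its arrays read -3.66, -0.91 and -1.35 in Cy5 and -2.57, -0.63 and -0.08 in Cy3, so both arrays of replicate 1 were the lowest of their dye. The mean was -1.53 ± 1.37 (SD, n = 3), with a limma adjusted p of 0.0456. It failed the threshold under 8 of 26 alternatives, over which the adjusted p ran from 0.00223 to 0.999, and the mean was -0.74 without replicate 1. The rule found 11 lowered probes, with means from -2.36 to -0.67, and 5 of them were largest on the repeat 1 array. Of the 11, 8 passed without that array and 10 passed with loess.

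**Figure D3:**
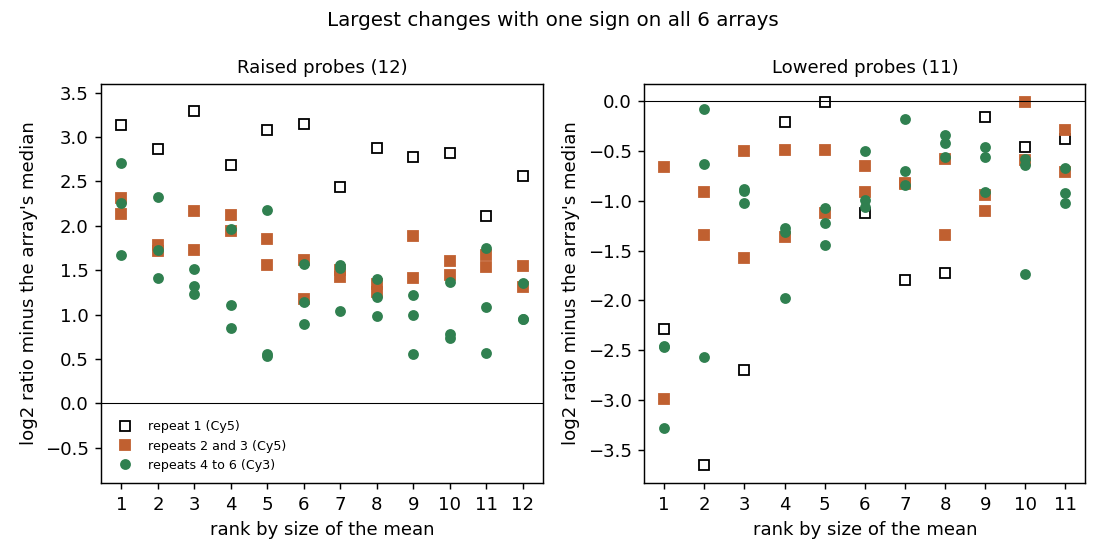
Centred log2 ratio on each of the 6 arrays for the 12 raised and 11 lowered probes of largest mean change among called probes with 1 sign on all 6 arrays, ranked from left to right by that mean; open squares are repeat 1, filled squares repeats 2 and 3 (treated RNA in Cy5) and circles repeats 4 to 6 (Cy3). The open square is the highest point of all 12 raised probes, while 5 of the 11 lowered probes have their largest value there.

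The probes called at 1 d were also read at the other times, where each time has its own treated RNA. Whether untreated RNA was shared is not stated, so values are set side by side. The 267 raised probes had a median of 0.07 at 3 h. At 1, 2, 3 and 4 d the medians were 0.78, 0.62, 0.89 and 0.78. At 3 h, 176 of the 267 were above 0, and at the 3 later times 259 of 265, 254 of 264 and 259 of 266 probes with a value were. The 81 lowered probes had medians of 0.07, -1.36, -0.45, -0.82 and -0.30 at the same times, and only 46 had a value at 3 d. Below 0 were 34 of the 81 at 3 h. At 2, 3 and 4 d, 51 of 68, 31 of 46 and 47 of 75 lowered probes with a value were below 0, and the others were above. All tested probes had medians between -0.01 and 0.03 at these times. Of those with a value, 19664 of 36454 were above 0 at 3 h. At 2, 3 and 4 d, 17197 of 35291, 16206 of 31550 and 19081 of 36161 were.

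Among the 107 probes called under all 3 settings, the 83 raised had medians of 0.14, 1.02, 0.97, 1.34 and 1.16 from 3 h to 4 d, and all 83 were above 0 at 2 d, 3 d and 4 d. The 24 lowered had medians of 0.03, -0.88, -0.77, -1.18 and -0.85, with 22 of 24, 20 of 22 and 21 of 24 below 0 at 2 d, 3 d and 4 d. Probe 1763317_1 averaged 0.49, 2.37, 2.09, 2.97 and 2.99 over the times. Probe 1792966_1 averaged 1.38, -2.36, -1.35, -1.97 and -2.34, on the other side of 0 at 3 h.

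**Figure D4:**
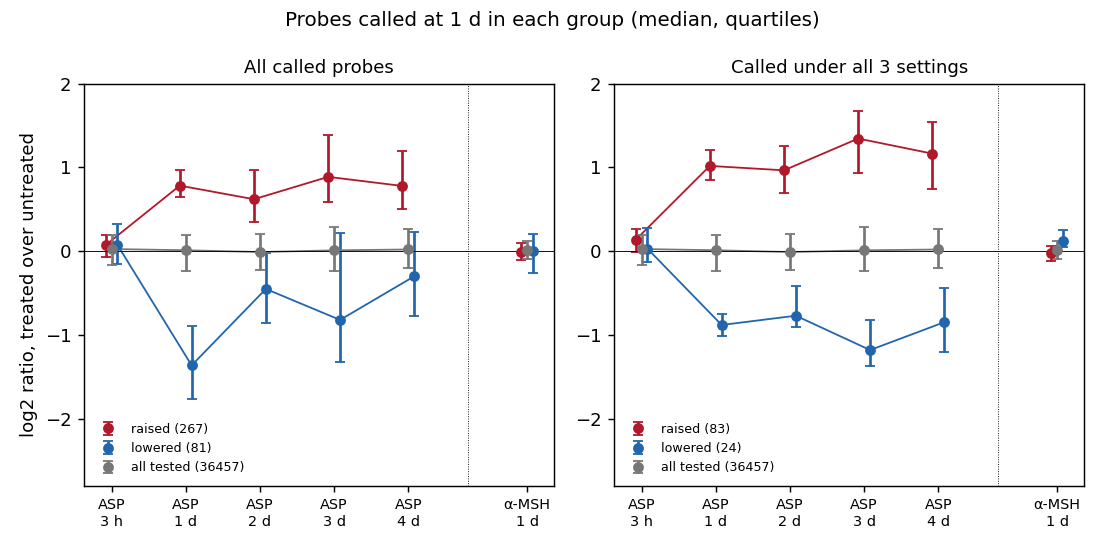
Median and quartiles of the log2 ratio in each ASP group and in α-MSH at 1 d, for probes raised or lowered at ASP 1 d and for all tested probes; the right panel holds the 83 raised and 24 lowered probes called under all 3 settings. Raised probes move from a median of 0.07 at 3 h to 0.78 at 1 d and lie between 0.62 and 0.89 later, and both sets lie near 0 under α-MSH.

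Between 3 h and 1 d, 216 of 36388 probes differed (0.594%, limma adjusted p under 0.05), 183 higher and 33 lower at 1 d. The 183 had medians of -0.76 at 3 h and 0.62 at 1 d, and 42 of them were among the raised probes. The 33 had medians of 0.57 and -1.15, and 21 were among the lowered probes. These overlaps are 15.7% of the raised and 26.6% of the lowered probes tested here. Both tests use the same 1 d means, so the overlaps are partly built in, and the medians come from probes chosen by this difference. Probe 1792966_1 differed by -3.74 (limma adjusted p = 0.00504) and probe 1763317_1 by 1.88 (0.0408), while probe 1770597_1 differed by 1.53 and missed the threshold (0.0545). The count fell to 16 without replicate 1 of 1 d and to 123 without its Cy5 array, and it was 0 when only ASP replicates estimated the spread (limma, 3180 at an unadjusted p under 0.05).

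Between 1 d and 2 d, 6 of 32970 probes differed (0.0182%), 5 higher and 1 lower at 2 d. The 2 d group has 5 arrays, so its replicate 3 is a single Cy3 array, corrected for the dye effect of each probe. No raised probe was among them, with 2636 probes at an unadjusted p under 0.05 in the limma test. The count was between 0 and 19 under the alternatives, and a low count does not show that the times were alike.

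Between 1 d and 3 d, 306 of 27918 probes differed (1.1%), 205 higher and 101 lower at 3 d. The 205 had medians of -0.18 at 1 d and 1.57 at 3 d, and 72 of them were already above 0 at 1 d. The 101 had medians of 0.30 and -0.76. The 205 held 11 raised and 3 lowered probes of 1 d, and the 101 held 7 raised probes. Raised probes thus differed at 6.84% and lowered probes at 10.3% of those tested, which is also partly built in. One of the 7 raised probes among the 101 was chosen after its values were seen, as the raised probe furthest from its later mean. It was 0.97 ± 0.09 at 1 d (SD, n = 3, resting on the assumed pairing) and -0.27 at 2 d. Its means were -1.40 ± 0.17 at 3 d and -1.40 ± 0.25 at 4 d. Its difference between 3 d and 1 d had a limma adjusted p of 0.000422, but it was not called under all 3 settings at 1 d. The count of 306 fell to 121 without replicate 1 of 1 d, and to 41 with the spread of ASP replicates alone.

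Under α-MSH at 1 d, the 267 probes raised by ASP had a median of -0.01 and the 81 lowered had a median of 0.00. Of the probes called under all 3 settings, the 83 raised had a median of -0.02, with 36 above 0, and the 24 lowered had a median of 0.12, with 20 above 0. Over all tested probes 20053 of 36405 were above 0. ASP and α-MSH at 1 d differed at 9 of 36388 probes (0.0247%, limma adjusted p under 0.05). Of these, 8 were higher with ASP, with medians of 1.51 and -0.10, and all 8 were among the 83 raised probes called under all 3 settings. They included probes 1763317_1 and 1770597_1, which averaged -0.33 ± 0.83 and -0.38 ± 0.65 (SD, n = 3) with α-MSH and differed by 2.70 and 2.35 (limma adjusted p = 0.0156 for both). The 8 are 9.64% of the 83, against 0.0247% of all probes tested. Both tests use the same ASP 1 d means, so this overlap is partly built in, and the medians come from probes chosen by this difference. The doses differ, and the labels name no array run, so drug and any such run cannot be told apart. The count was 3 without replicate 1 of ASP, 1 without replicate 2 and 17 without the Cy5 array of repeat 1.

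**Figure D5:**
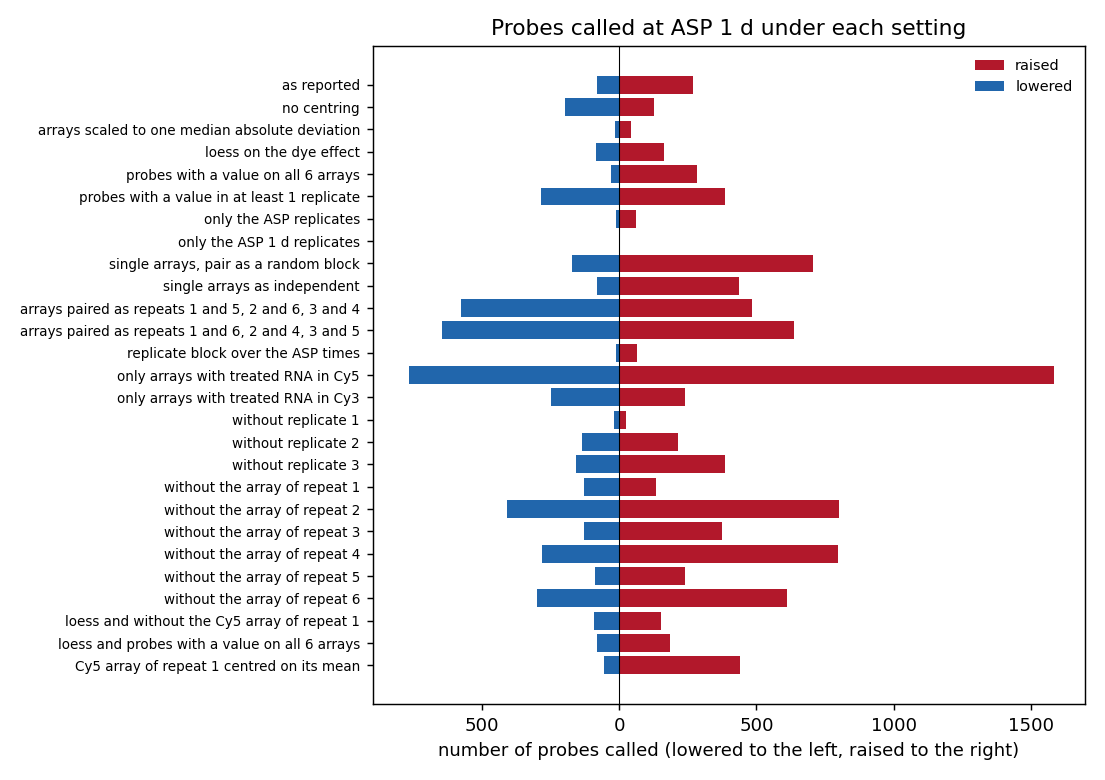
Number of probes called at ASP 1 d (limma adjusted p under 0.05) under each setting, with lowered probes to the left and raised probes to the right of 0. The bars range from 0 probes with only the 1 d replicates to 1585 raised and 766 lowered with only the 1 d Cy5 arrays after dye correction.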

How the data were processed

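The deposited table holds log2 ratios (the base is taken, not stated) of 38591 probes on 59 arrays. Per the labels' protocols, total RNA was column-extracted and labelled indirectly with Cy3 and Cy5. Nothing used here names the image software, filters or normalization. Each array was centred on its median. Per probe and drug, the dye effect was estimated and removed, so that a replicate missing 1 orientation could be used. Dye-swap arrays were averaged, giving 30 replicates in 10 groups (1 of ASP at 2 d is a single array, and α-MSH arrays were paired by database order, an assumption), fitted in 1 model with limma 3.58.1 (R 4.3.3), which shares the spread over groups. Probes with at least 2 of 3 replicates at 1 d were tested. The loess alternative regressed each 1 d array on the probe dye effect of the other 4 ASP times (span 0.3). The procedure was tested on simulated data with independent arrays of equal spread. Those data held no array like that of repeat 1, so the test does not cover its effect. Array number limits precision, and p-values measure only the spread between these samples. Probes shown were those with the largest mean change among called probes with 1 sign on all 6 arrays (12 per direction at most; 2 numbers printed). Gene lists could not be applied, since probes are not paired with genes. Members, lists and tests were chosen with earlier results of these data known. Pair numbers did not pair samples across ASP times: same-numbered replicates correlated at a median of 0.02 (-0.27 to 0.26) and others at -0.02.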

Additional observations from a re-analysis of the deposited data

Results flagged for a closer look

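For a value lying far from the rest, 7 comparisons over the 6 arrays were made. They covered the median, interquartile range and number of values of the arrays, and the array values of each probe printed by number. Chance marks about 1 in 20, a rate that does not cover probes chosen for 1 sign on all 6 arrays. The Cy5 array of repeat 1 lay far from the other 5 arrays in 2 of the 7, both of whole arrays. Its median, turned to Cy5 over Cy3, was -1.44, and the next was -0.371. Its interquartile range was 3.45, and the next was 0.92. Tests of the difference between groups also marked 216 probes between ASP at 1 d and 3 h, 6 between 2 d and 1 d, 306 between 3 d and 1 d, and 9 between ASP and α-MSH at 1 d (limma adjusted p under 0.05). The part of the repeat 1 array in these counts was not tested beyond leaving it out, which gave 123, 12, 380 and 17.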

How the results depend on the processing

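The count of 348 probes changed at 1 d ran from 44 to 1211 when 1 replicate or array was left out, the raised count from 25 to 802 and the lowered count from 19 to 409. Median absolute deviation scaling gave 60 (44 raised, 16 lowered), no centring 127 raised and 198 lowered, and loess 162 raised. Probes with 6 values gave 32 lowered, and 1 replicate as the minimum gave 671, with 286 lowered. Estimating the spread from ASP replicates gave 73 (59 and 14), and from the 1 d replicates 0, 0 raised and 0 lowered (limma, 1418 at an unadjusted p under 0.05; no other tool was run). Single arrays gave 879 (707 and 172) with the pair as a random block, and 435 raised as independent. The alternative pairings of direct and reverse arrays that were run, not all that are possible, gave 1062 (484 and 578) and 1283 (636 and 647). With the dye correction from all ASP arrays kept, the 1 d Cy5 arrays alone gave 2351 (1585 and 766), and Cy3 arrays alone 240 raised and 248 lowered. An adjusted p under 0.01 left 70 (54 and 16), and 2-fold 120 (63 raised). Of settings chosen after the data were seen, loess without the Cy5 array of repeat 1 gave 152 raised, and centring that array on its mean 439 raised. The replicate block over ASP times gave 80 (66 raised, 14 lowered), and 0, 0 and 39 for the differences of 1 d from 3 h, 2 d and 3 d (limma, 3132 and 1466 at an unadjusted p under 0.05 for the zeros).

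For the differences between groups, each replicate of ASP 1 d and its Cy5 array of repeat 1 were left out; that array, loess and ASP replicates alone were chosen after the data were seen. The difference from 3 h then gave 16 to 277 probes, 141 without centring and 0 with ASP replicates alone. The difference from 2 d gave 0 to 12, and 1 without centring, 0 over probes with 6 values (2313 at an unadjusted p under 0.05), 19 with loess and 0 with ASP replicates alone (1511). The difference from 3 d gave 121 to 380, and 41 with ASP replicates alone. The difference from α-MSH gave 1 to 17, and 16 without centring. The causes were not tested. Of the 4 probes printed by number, 3 kept direction and threshold under 25 of 26 alternatives, and probe 1764596_1 under 18. No mean changed sign.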
